A study of Mus musculus with 12 samples.

Results

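Transcripts of 44 genes of TGF-β, activin and BMP signalling were measured in mouse NIH3T3 cells, a line of immortalized embryonic fibroblasts, after treatment with IL-1β. The 44 genes were a list given by symbol and hold ligands, receptors, SMADs, secreted binders and ID target genes. All 44 were found among the 27179 gene IDs of the count tables, and 32 of them reached 1 CPM (counts per 1000000 counts of a library) in each of the 3 libraries. Among all protein-coding genes 51.1% reached that level, and among all gene IDs 41.3%. The list is of genes chosen for a known pathway, so its share of detected genes is a description.

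TGF-β family ligands are secreted as dimers and bring together type II and type I receptors, which are serine/threonine kinases. The type I receptor then phosphorylates SMAD2 and SMAD3 in the TGF-β and activin branch, or SMAD1, SMAD5 and SMAD9 in the BMP branch. These enter the nucleus with SMAD4, while SMAD6 and SMAD7 damp the signal and secreted proteins such as gremlin, noggin and follistatin keep ligands from their receptors. In fibroblasts the TGF-β branch is known for driving matrix production and the contractile myofibroblast state, and the BMP branch for raising the ID genes.

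The cells were a RelA-/- population that carried RelA joined to the fluorescent protein DsRed, so RelA, the p65 subunit of NF-κB, came from the fusion. They were exposed for 2 h to IL-1β at 0.2 ng/mL in microfluidic devices, and polyA RNA was sequenced from 3 samples. The labels also list LPS (100 ng/mL), PAM (0.2 ng/mL) and media, with 3 samples each in the same cells, but the 9 tables of these samples equal the table of IL-1 replicate 3 byte for byte. They were left out, so no gene below is compared with unstimulated cells, and the levels do not show whether IL-1β changed a gene. The labels do not state whether the 3 samples were separate cultures, or whether the line is 1 clone, so the SD may be technical.

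The 3 libraries held 17254518 to 18578859 counts. Rela, the deleted and reintroduced gene, had 641, 551 and 723 counts in replicates 1 to 3, and gene counts do not separate the fusion from transcripts of the deleted allele. All 8 fibroblast markers checked were detected, with a summed level of 8970 to 9219 CPM. The 6 endothelial markers summed to 0.538 to 0.811 CPM (Tie1 at 0 in all libraries). The 5 epithelial markers summed to 0.580 to 0.663 CPM (Krt18 at 0). None of either set was detected. The 6 macrophage markers summed to 10.7 to 17.7 CPM, mostly Lyz2, and 3 were detected (Lyz2, Cd68 and Csf1r). The 4 smooth muscle and pericyte markers summed to 3.07 to 3.59 CPM, mostly Des, and only Des was detected. In bulk RNA, fewer cells of a type and less RNA per cell cannot be told apart. Because longer transcripts give more reads, genes are compared below as CPM per kb of merged exon, and each gene is described by its mean ± SD over the 3 libraries (n = 3).

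Among the 11 ligand genes, Tgfb3 was the most abundant per kb, and 6 of the 11 were detected. Tgfb3 (chromosome 12, 86056743 to 86079041, GRCm38) had 16.3, 13.1 and 16.9 CPM per kb in replicates 1 to 3, or 15.4 ± 2.05. Tgfb2 (chromosome 1, 186622787 to 186709697) had 6.04, 5.85 and 6.53 CPM per kb. Tgfb1 (chromosome 7, 25687002 to 25705077), the best-studied of the 3 isoforms, had 0.471, 0.482 and 0.758 CPM per kb, from 41, 44 and 71 counts. The 3 isoforms did not overlap in any library. Within a library Tgfb3 was 22.3 to 34.5 times and Tgfb2 8.62 to 12.8 times as high as Tgfb1. With the longest transcript as length these multiples fell to 11.4 to 17.6 and 4.98 to 7.41. Other gene models share 8.79% of the 50-base words of Tgfb3 transcripts, most of them with Gm48008 (6.27%), which leaves some doubt on its counts.

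Activin and BMP ligands were lower than Tgfb3. Inhba, which encodes the activin A subunit, had 2.13, 1.77 and 1.90 CPM per kb, whereas Inhbb, the activin B subunit, had 9, 0 and 11 counts. Bmp4, a ligand of the BMP branch, was the leading BMP gene at 4.77, 4.18 and 5.20 CPM per kb (chromosome 14, 46383525 to 46390669). Gdf5, a joint and cartilage morphogen, had 0.724, 0.762 and 1.30 CPM per kb. Gdf5 and Tgfb1 overlapped in range, and their order reversed when the longest transcript served as the length (0.929 for Gdf5 against 1.12 for Tgfb1). Another gene model, Gm15557, shares 39.2% of the 50-base words of Gdf5 transcripts, so the Gdf5 counts are uncertain. Bmp2 and Gdf6 had no count in any library, which leaves levels of up to 3 counts over the pooled libraries, or 0.0556 CPM, undetectable at this depth. Bmp7 had 1, 0 and 0 counts, and Bmp6 had 0, 5 and 8. Summed over their genes, the 3 TGF-β ligands had 22.1 ± 2.46 CPM per kb, the 6 BMP and GDF ligands 5.71 ± 0.815 and the 2 activin subunits 2.02 ± 0.241, with no overlap between the 3 sums.

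**Figure D1:**
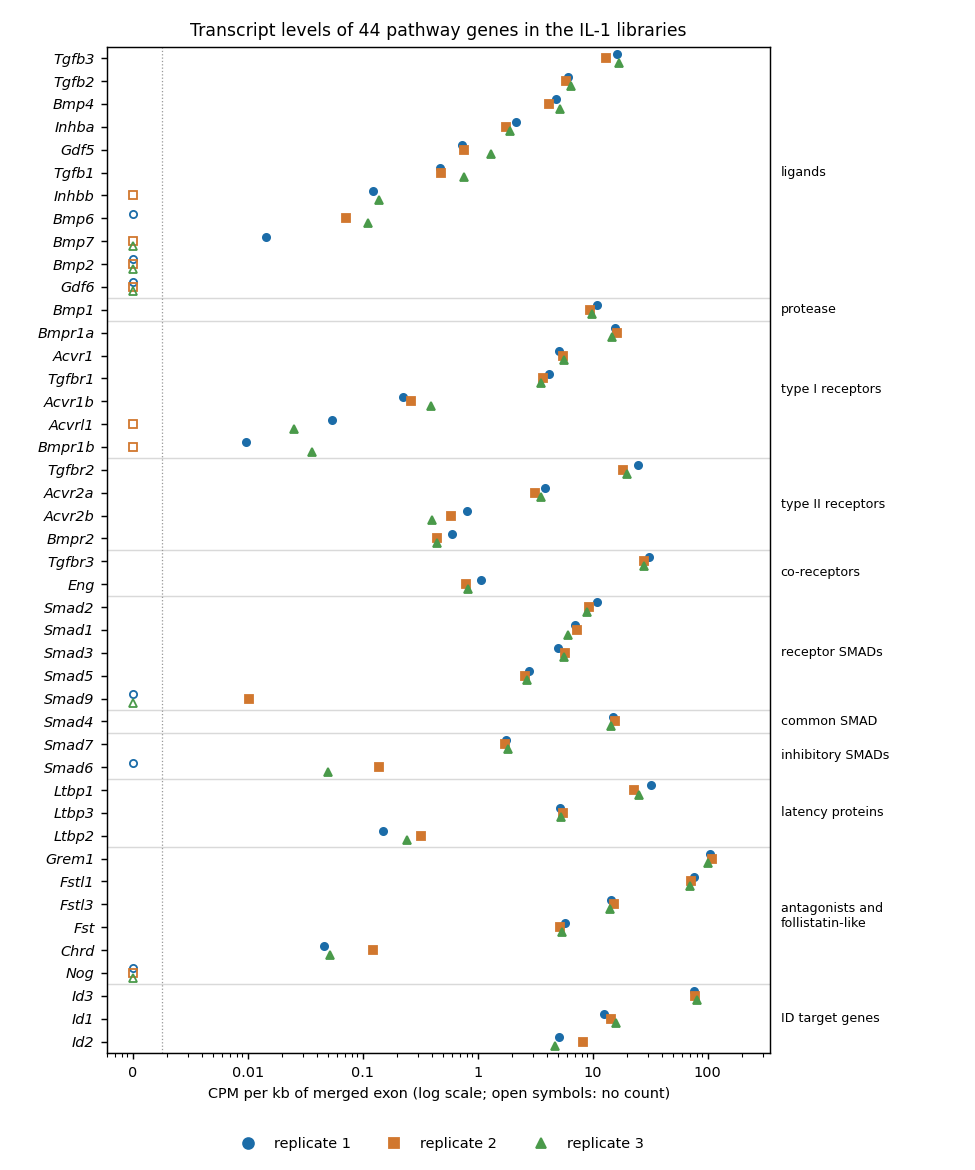
CPM per kb of merged exon on a log axis for each of the 44 genes, grouped by role, with 1 symbol per IL-1 library; open symbols left of the dotted line mark libraries with no count. Grem1, Id3 and Fstl1 stand highest, and Bmp2, Gdf6 and Nog have no count in any library.

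Bmp1 and the 3 latency genes of the list were all detected. Bmp1 is named with the BMPs but encodes a metalloprotease that trims procollagen and cleaves chordin. It had 10.9, 9.40 and 9.87 CPM per kb, or 89.3 ± 6.88 CPM, and averaged 16.6 CPM per kb with the longest transcript. Ltbp1, which ties latent TGF-β to the matrix (chromosome 17, 75005480 to 75392512), had 32.2, 23.0 and 25.3 CPM per kb and gave 82.7% of the summed level of the 3 latency genes. Ltbp3 had 5.20, 5.52 and 5.35 CPM per kb. Ltbp1 was 4.16 to 6.19 times as high as Ltbp3 within a library. Ltbp2, which unlike the other two is not known to bind latent TGF-β, had 21, 48 and 37 counts, or 1.95 ± 0.719 CPM. Its lowest library, at 1.22 CPM, was the closest to the detection limit among the 32 detected genes of the list. Its transcripts share 8.58% of their 50-base words with another gene model, D030025P21Rik, which had 0, 2 and 0 counts.

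Type I receptors were led by a BMP receptor and type II receptors by the TGF-β receptor. Bmpr1a (chromosome 14, 34411061 to 34503336) had 15.6, 16.1 and 14.8 CPM per kb. Acvr1, the type I receptor also known as ALK2, had 5.06, 5.54 and 5.66 CPM per kb. Tgfbr1, the TGF-β type I receptor, had 4.13, 3.71 and 3.56 CPM per kb. These 3 genes did not overlap in level, and Bmpr1a was 2.62 to 3.07 times as high as Acvr1 within a library. The other 3 type I genes were near or under the detection limit. Acvr1b, the activin receptor ALK4, had 17, 21 and 32 counts and just missed detection, at 0.985 CPM in replicate 1. Bmpr1b had 1, 0 and 4 counts. Acvrl1, an endothelial receptor, had 4, 0 and 2 counts. Of the endothelial markers, Pecam1 was the highest at 11, 8 and 7 counts, and each of the others had at most 1 count in any library.

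All 4 type II receptor genes were detected. Tgfbr2 (chromosome 9, 116087695 to 116175363) had 24.8, 18.2 and 19.7 CPM per kb, which was 81.9% of the summed level of the 4 genes. It was 4.91 to 6.01 times as high as its type I partner Tgfbr1 within a library. Acvr2a, a receptor for activins and some BMPs, had 3.82, 3.18 and 3.57 CPM per kb, and Acvr2b had 0.811, 0.591 and 0.397. Acvr2a stood above Acvr2b in every library, by 4.71 to 8.98 times. Its counts carry some doubt, since 7.0% of its 50-base words also occur in transcripts of the neighbour Orc4, which had 2919 to 3167 counts. Bmpr2, the BMP type II receptor, had 10.7, 7.96 and 7.97 CPM but only 0.596, 0.443 and 0.443 CPM per kb, since its merged exons span 17983 bases. Bmpr2 and Acvr2b overlapped in CPM per kb. Per kb, Tgfbr2 was 41.2 to 44.5 times as high as Bmpr2.

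The 2 co-receptors lay far apart. Tgfbr3 encodes betaglycan, which presents TGF-β2 to the receptors and binds inhibin. It had 30.7, 27.9 and 28.1 CPM per kb, or 189 ± 10.2 CPM (chromosome 5, 107106567 to 107289629), the highest level per kb of the 12 receptor and co-receptor genes. Eng, which encodes endoglin, the co-receptor typical of endothelium, had 1.06, 0.792 and 0.824 CPM per kb. Within a library Tgfbr3 was 29.0 to 35.3 times as high as Eng.

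SMADs of both branches were present, with 6 of 8 genes detected. Smad4, the partner shared by both branches, was the highest, at 15.1, 15.7 and 14.4 CPM per kb. Smad2 had 10.9, 9.36 and 9.004 CPM per kb and Smad3 had 4.999, 5.71 and 5.61. Smad2 was 1.60 to 2.18 times as high as Smad3 within a library. In the BMP branch Smad1 had 7.04, 7.34 and 6.04 CPM per kb and Smad5 had 2.77, 2.58 and 2.69, and Smad1 was 2.25 to 2.85 times as high as Smad5. Smad9 had 0, 1 and 0 counts. Smad2 and Smad1 did not overlap by merged exons. With the longest transcript as length the mean of Smad1 came first, at 11.3 against 10.6 CPM per kb. The ranges then overlapped, and Smad2 was the higher in replicate 1, at 11.8 against 11.7. The sum of Smad2 and Smad3 was 1.60 ± 0.0792 times that of Smad1, Smad5 and Smad9, and 1.16 ± 0.0664 times with the longest transcript. No 50-base word of Smad1, Smad2, Smad3, Smad4, Smad6 or Smad7 occurred in transcripts of another gene.

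Of the inhibitory SMADs, Smad7, which is known to be induced by TGF-β and to block its receptor, had 1.76, 1.74 and 1.82 CPM per kb, with a CV of 2.52% that lies below the 8.33% that counting alone gives. Smad6, which acts mainly on the BMP branch, had 0, 8 and 3 counts. Pooled over the libraries, Smad6 was at 0.204 CPM, with an exact 95% Poisson interval of 0.102 to 0.365 CPM that covers counting error only.

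Secreted antagonists and follistatin-like proteins formed the most abundant role of the 44-gene list by summed CPM per kb. Grem1 encodes gremlin, which binds BMP2, BMP4 and BMP7. It had 105, 108 and 101 CPM per kb, or 435 ± 15.3 CPM (chromosome 2, 113748675 to 113758648), and ranked 521 among the 10783 detected genes with a known length. The 2 other classical BMP antagonists were close to or at 0. Nog, which encodes noggin, had no count in any library, and Chrd, which encodes chordin, had 5, 14 and 6 counts. Grem1 was 19.5 to 26.0 times as high as Bmp4, the leading BMP ligand. The sum of Grem1, Nog and Chrd was 19.1, 21.7 and 15.3 times that of the 6 BMP and GDF ligands in replicates 1 to 3.

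Antagonists of activin were detected too. Fst, which encodes follistatin, had 5.73, 5.23 and 5.45 CPM per kb and was 2.69 to 2.95 times as high as Inhba within a library, or 4.23 to 4.63 times with the longest transcript as length. Fstl3, a relative that also binds activins, had 14.5, 15.2 and 14.1 CPM per kb and was 2.52 to 2.90 times as high as Fst. Fstl3 transcripts share 46.2% of their 50-base words with Prss57, a neighbour that had 0, 1 and 0 counts, and how reads of the shared stretch were counted is not known. Together Fst and Fstl3 reached 8.96, 11.5 and 9.62 times the summed level of Inhba and Inhbb. Fstl1, a matrix glycoprotein of the SPARC family with a follistatin domain, had 75.4, 71.7 and 69.6 CPM per kb and was second to Grem1 in this role, with no overlap.

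The ID genes, which encode dominant-negative partners of bHLH transcription factors and are standard readouts of BMP signalling, were all detected. Id3 (chromosome 4, 136143822 to 136145392) had 76.3, 77.4 and 81.3 CPM per kb and ranked 744 among the detected genes. Id1 (chromosome 2, 152736251 to 152737410) had 12.6, 14.3 and 16.0 CPM per kb, and Id2 (chromosome 12, 25093799 to 25096092) had 5.11, 8.16 and 4.75. Id3 was 5.08 to 6.06 times as high as Id1 within a library. Id1 stood above Id2 in every library, by 1.75 to 3.37 times. Without media samples, these levels do not show how much of the ID transcripts depended on BMP ligands. Under the longest transcript as length, the mean of Id3 came above that of Grem1, at 109.8 against 104.9 CPM per kb. Their ranges overlapped, with 107.0, 108.5 and 113.9 for Id3 against 105.1, 108.5 and 101.1 for Grem1 in replicates 1 to 3.

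The DNA just upstream of the leading antagonist and of 2 ID genes is shown. Grem1 had the highest antagonist level, and the ID genes are the BMP readout of the list. Id1 is left out because no window was found for it. The sequences are the 250 bases before the annotated start, from RefSeq on GRCm38.p6, written 5′ to 3′ on the gene's strand. Capitals mark GGCGCC, a GC-rich element bound by BMP-activated SMADs that reads the same on both strands, and CAGAC or its reverse complement GTCTG, which hold the SMAD box. The matches shown do not overlap. The Grem1 window is chr2:113758649-113758898 (minus strand), that of Id2 chr12:25096093-25096342 (minus strand) and that of Id3 chr4:136143572-136143821 (plus strand).
Grem1: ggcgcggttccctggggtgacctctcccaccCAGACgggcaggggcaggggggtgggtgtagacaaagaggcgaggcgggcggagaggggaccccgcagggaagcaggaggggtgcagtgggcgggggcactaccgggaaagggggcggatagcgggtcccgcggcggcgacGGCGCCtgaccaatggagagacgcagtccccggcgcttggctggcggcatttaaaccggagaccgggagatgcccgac
Id2: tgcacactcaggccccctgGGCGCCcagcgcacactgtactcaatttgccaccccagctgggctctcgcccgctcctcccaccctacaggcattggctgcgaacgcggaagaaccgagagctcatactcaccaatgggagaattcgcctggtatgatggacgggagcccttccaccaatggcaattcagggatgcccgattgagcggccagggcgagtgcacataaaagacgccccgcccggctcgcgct
Id3: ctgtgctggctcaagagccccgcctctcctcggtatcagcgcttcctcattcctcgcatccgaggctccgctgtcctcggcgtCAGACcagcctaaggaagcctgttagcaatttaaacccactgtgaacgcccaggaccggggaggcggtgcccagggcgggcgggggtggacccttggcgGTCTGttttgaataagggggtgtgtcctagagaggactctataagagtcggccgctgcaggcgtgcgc

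GGCGCC occurred once each in the Grem1 and Id2 windows and not in that of Id3, which held CAGAC and GTCTG once each; Grem1 held CAGAC once. Of all 32851 windows of this length, 9.59% held GGCGCC and 42.2% held CAGAC or GTCTG. Windows were found for 30 of the 44 genes, 36 windows in all, of which 8 held GGCGCC and 17 CAGAC or GTCTG. A match describes letters only; binding was not measured.

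Summed by role, secreted antagonists and follistatin-like genes had 197 ± 5.98 CPM per kb and the ID genes 98.6 ± 4.13. Each of these sums exceeded that of every other role of the 44-gene list in all libraries. A sum also grows with the number of genes listed, from 1 for Smad4 to 11 for ligands. Latency proteins (32.4 ± 4.54), ligands (29.9 ± 3.38), co-receptors (29.8 ± 1.71), type II receptors (25.5 ± 4.01), type I receptors (25.1 ± 0.566) and receptor-regulated SMADs (24.7 ± 1.21) lay close together, with overlapping ranges between neighbours in this order. That closeness depends on the length used: with the longest transcript the latency proteins summed to 51.7 ± 7.31 and lay above the other 5 in every library. The inhibitory SMADs were lowest, at 1.83 ± 0.0674. In the roles with several genes most sums were carried by 1 gene, from 51.7% for Tgfb3 among ligands to 97.0% for Tgfbr3 among co-receptors, while the receptor-regulated SMADs were the most even (39.5% from Smad2).

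**Figure D2:**
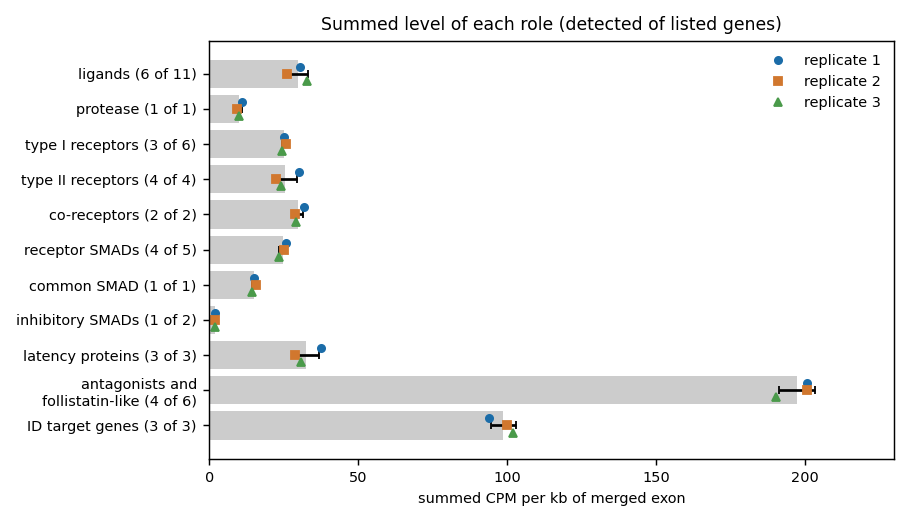
Summed CPM per kb of the genes of each role; bars are means over the 3 IL-1 libraries, error bars SD, symbols single libraries, and the numbers in brackets are detected of listed genes. The antagonist and follistatin-like genes reach 197 and the ID genes 98.6, and the other roles stay under 40 in every library.

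Over all 21 neighbouring pairs of detected genes in the order within a role, 19 did not overlap between libraries, and the exceptions were Gdf5 with Tgfb1 and Acvr2b with Bmpr2. Of 21 pairs of paralogs or partners compared within libraries, 15 had both genes detected, and all 21 had the same sign in all 3 libraries. With 3 libraries an exact two-sided sign-flip permutation test cannot go below p = 0.25, and each pair had p = 0.25, also after Benjamini-Hochberg adjustment over the 21 pairs. The pairs therefore cannot pass a threshold of 0.05, and the ratios are given by their range. That range covers the spread between libraries and not the choice of length. With the longest transcript as length some ranges moved clear of those printed. Tgfbr2 over Bmpr2 became 29.9 to 32.3 and Bmpr1a over Acvr1 1.90 to 2.24. Smad1 over Smad5 became 3.30 to 4.19 and Id3 over Id1 7.11 to 8.50. Other ranges still overlapped, such as Ltbp1 over Ltbp3 at 4.22 to 6.27.

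**Figure D3:**
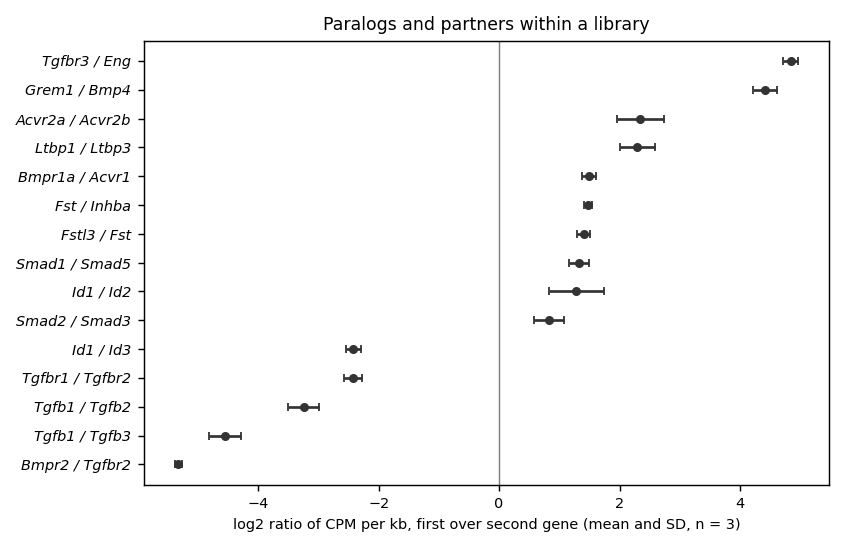
Log2 ratio of CPM per kb, first gene over second, within a library; points are means and bars SD over the 3 IL-1 libraries, for the 15 pairs with both genes detected. Tgfbr3 over Eng lies highest at 4.84 and Bmpr2 over Tgfbr2 lowest at -5.33, and no SD bar crosses 0.

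The 32 detected genes varied between libraries about as much as the rest of the transcriptome. Their median CV was 8.51%, against 8.56% over all 11224 detected genes, and 16 of 32 had a larger SD of log2(CPM + 0.5) than the median gene. Replicate 1 held the highest CPM of 14 of the 32 genes, against 45.7% of all detected genes. Replicate 2 held 9 of the 32 (27.1% of all genes) and replicate 3 held 9 (27.3% of all genes). The median gene of the list was 1.03 times as high in replicate 1 as in the mean of the other 2, the same as the median of all detected genes (1.03).

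Ltbp2 had the largest CV of the 32 genes, 36.8% against 16.8% from counting alone, with 1.22, 2.65 and 1.99 CPM in replicates 1 to 3. Among more abundant genes, Tgfbr2 had 203, 149 and 161 CPM and Ltbp1 344, 246 and 271, so replicate 1 was 1.31 and 1.33 times the mean of the other 2. Their CVs of 16.6% and 17.8% compare with 1.81% and 1.40% from counting alone. Bmpr2 and Eng were also highest in replicate 1, by 1.35 and 1.31 times, as was Acvr2b, by 1.64 times. Id2 was highest in replicate 2, at 19.9 CPM against 12.5 and 11.6 in replicates 1 and 3, or 1.66 times their mean. Id1 had 14.6, 16.6 and 18.6 CPM and Id3 137, 139 and 146, so the 3 ID genes did not share their highest library. Tgfb1 and Gdf5 were highest in replicate 3, by 1.59 and 1.75 times, and Acvr2b was lowest there, at 0.567 times the mean of the other 2, all 3 from few counts. Grem1 (CV 3.53%), Fstl1 (4.05%), Bmpr1a (4.17%) and Smad4 (4.26%) were among the 10 genes under 5%.

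**Figure D4:**
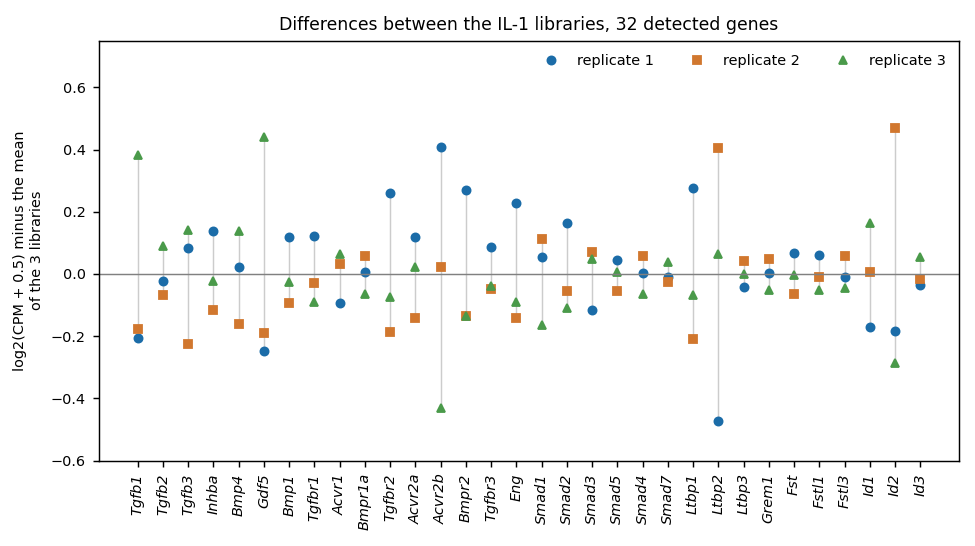
Difference of log2(CPM + 0.5) from the mean of the 3 IL-1 libraries for each of the 32 detected genes; symbols are single libraries and grey lines span their range. Most genes stay close to 0. Ltbp2 and Id2 stand high in replicate 2, Acvr2b, Tgfbr2, Ltbp1 and Bmpr2 in replicate 1, and Tgfb1 and Gdf5 in replicate 3.

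Of 67 other genes of the pathway, 44 were detected, against 51.1% of all protein-coding genes and 41.3% of all gene IDs. The lists of each role are short and were chosen by hand, so the counts per role are a description. None of 11 further ligand genes reached 1 CPM in each library. The highest per kb were Inha, the inhibin subunit, with 6, 1 and 15 counts, and Gdf15 with 7, 7 and 12, while Gdf10, Mstn, Bmp5, Bmp8a and Nodal had no count. Of 6 further receptors and decoys 3 were detected, led by the BMP co-receptor Rgmb at 2.14 ± 0.186 CPM per kb and the decoy receptor Bambi at 1.56 ± 0.105. Of 12 genes for activation and processing 7 were detected. Itgb1, an integrin chain with many partners, was at 254 ± 10.8 CPM per kb, and Itgav, whose integrins release latent TGF-β, was at 25.2 ± 2.64. Of the other integrin beta chains listed, Itgb5 was at 16.0 ± 0.245 CPM per kb and Itgb8 at 0.199 ± 0.0177. Itgb3 (8, 20 and 19 counts) and Itgb6 (3, 2 and 0 counts) were not detected.

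Further extracellular binders were abundant. Of 12 such genes 9 were detected, led by Htra1, a secreted protease reported to cleave TGF-β family proteins, at 428 ± 9.73 CPM per kb, and the proteoglycan Bgn at 304 ± 15.7. All 14 intracellular modulators were detected, with Strap, a receptor-associated inhibitor, at 220 ± 11.1 CPM per kb and Fkbp1a, which binds type I receptors, at 175 ± 2.07. Of 12 further genes known to respond to the pathway 11 were detected, and Tgfbi was not (17, 14 and 16 counts). The highest were the actin gene Acta2 at 189 ± 9.88 CPM per kb and Col1a1 at 109 ± 11.9. The lowest detected was Hey1 at 0.402 ± 0.0434. Col1a1 and Fn1 of this set are also among the fibroblast markers. All 12 genes have other regulators, and no control sample was analysed here.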

How the data were processed

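PolyA RNA of RelA-/- RelA-DsRed NIH3T3 cells was sequenced by the submitters. The tools listed, per the submitters' processing notes, are CASAVA, STAR and featureCounts, with build mm10; their versions and settings (annotation, strand, multi-mapping reads) were not given in the sources used here. The deposited tables hold raw counts per Entrez gene ID, and per the labels' protocols lysates were reverse transcribed without extraction and pre-amplified for 10 cycles, with no molecular identifiers mentioned, so counts are reads and limits cover counting error only. The 9 LPS, PAM and media tables were byte for byte copies of IL-1 replicate 3 and were not used.

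CPM used each library's total count (17254518 to 18578859). At these totals a count of 0 allows 3 counts, or 0.161 to 0.174 CPM per library. Symbols and positions came from RefSeq GRCm38.p6 by Entrez ID, which matched 25275 of 27179 IDs, and merged exon lengths from GENCODE M21. The annotation used for counting was not given, so these lengths may not match the exons counted. Evenness of coverage along transcripts was not checked. A gene counted as detected if every library had at least 1 CPM. Pair ratios used log2((CPM + 0.5) per kb); printed multiples are ratios without the added 0.5. Shared 50-base words were searched on both strands of GENCODE M21 transcripts. TMM and relative log expression factors came from edgeR 4.0.16 (R 4.3.3); all else was computed in Python 3.11.15 with pandas 2.3.3 and numpy 2.4.6. Simulated counts with genes raised in replicate 1 were used to test only the highest library and the fold of replicate 1 over the others. Levels, role sums and pair ratios were not tested this way. Values are given for the 2 highest genes of each role, the genes of each pair and counts for undetected genes; other named values were chosen after being seen. The list, roles, pairs and other lists were chosen with earlier results of these data known.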

Additional observations from a re-analysis of the deposited data

How the results depend on the processing

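No paired analysis was possible because the tables of the other groups were copies, which left a single group. Of the 32 detected genes, all kept levels within 1 SD with TMM or relative log expression factors; leaving out a library cannot move a mean of 3 by 1 SD. No pair ratio changed direction under other factors, another length, a pseudocount of 0.1 CPM or without any 1 library. With the longest transcript as length, 20 of the 32 levels moved by more than 1 SD, since lengths are shorter by construction. The median level of detected genes then (median in each library, averaged) rose from 5.63 to 8.23 CPM per kb, the levels of Tgfb1, Bmp1, Smad1, Ltbp1, Ltbp3 and Fst rose by over 1.5 times, and the role sums became 16.6 for the protease, 29.1 for type I receptors, 32.2 for co-receptors, 30.8 for receptor-regulated SMADs, 16.5 for Smad4, 1.94 for inhibitory SMADs, 51.7 for latency proteins, 225 for antagonists and follistatin-like genes and 132 for ID genes. With 1 library left out, 13 to 14 genes in place of 9 were highest in replicate 2 (14 without replicate 3) and 12 to 19 in place of 9 in replicate 3 (19 without replicate 1), as fewer libraries compete. The low counts of Acvr1b, Inhbb, Bmp6, Smad6 and Chrd limit what can be said of them.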
